A study of Mus musculus with 6 samples.

Results

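Plasmacytoid dendritic cells are defined by a small set of transcription factors and surface proteins, and 10 genes of this set were followed in NK cells of mice in which *Myc* is deleted. The genes were *Irf8*, *Tcf4*, *Siglech*, *Bst2*, *Ccr9*, *Cox6a2*, *Spib*, *Ly6d*, *Flt3* and *Runx2*, out of 25690 gene symbols measured. They were listed by name because *Irf8* was known to be higher in the *Myc*-deficient cells, and the question was whether its difference was matched by the other genes of the set. All 10 passed the filter on low counts and were among the 15474 tested genes. As the set was drawn up with results of these libraries in view, its own values, and the counts of its genes past a threshold, are given as a description, and no p-value is given for them.

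The cells were CD27SP NK cells, the immature subset sorted from the BM as NK1.1+, CD27+ and CD11b- after lineage exclusion. Mice of 2 genotypes on the C57BL/6 background were compared, with no treatment given in the labels and 3 libraries each that carry the numbers 1, 2 and 4. Those of the genotype *Ncr1cre Myc* wt/wt are called control libraries, and those of the genotype *Ncr1cre Myc* fl/fl are called *Myc* fl/fl libraries. Both genotypes carry the Cre recombinase at the *Ncr1* locus, which removes the floxed *Myc* alleles once a cell expresses NKp46. Any cell of the gate that had not yet expressed NKp46 therefore keeps *Myc*, and neither NKp46 nor a dendritic marker was used in the sort. The labels do not say whether each library is a separate mouse or a pool, so that the p-values measure the spread between these libraries. The study matched its mice for sex and age, and which age belongs to which library is not given in the sources used here.

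IRF8 is a transcription factor of the interferon regulatory factor family that is needed for type 1 conventional dendritic cells and monocytes and is also expressed in plasmacytoid dendritic cells, B cells and NK cells. Plasmacytoid dendritic cells are the main source of type I interferon after sensing viral nucleic acid. Their identity rests on the E protein TCF4 (E2-2), which works with SPIB and RUNX2 and against ID2, and they develop from BM progenitors under the growth factor of FLT3.

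Estimated counts summed to between 54550907 and 64962491 in 5 libraries and to 8101219 in control library 1. In that library 3 counts correspond to 0.390 CPM (counts scaled to library size, here by the TMM method), against 0.0458 to 0.0549 CPM in the others. *Myc* was at 200.5, 183.4 and 164.3 CPM in control and at 61.5, 64.6 and 76.5 CPM in *Myc* fl/fl libraries. The gate was rich in NK cell transcripts in both genotypes, as 15 NK cell markers summed to 16708 to 17382 CPM in control and to 19259 to 21238 CPM in *Myc* fl/fl libraries. *Ncr1*, which encodes NKp46, lay between 722.7 and 1016 CPM in all 6 libraries. In bulk RNA, more cells of a type and more RNA per cell cannot be told apart.

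*Irf8* spans chr8:120736358-120756694 on the plus strand of GRCm38, and *Siglech* spans chr7:55768178-55778925 on the plus strand. *Bst2* lies on the minus strand at chr8:71534255-71537456. The 250 bases before the RefSeq start of these 3 genes (GRCm38.p6) are printed because they stand for the index gene, for a surface marker that was higher in every *Myc* fl/fl library, and for a surface marker whose libraries overlapped. They cover chr8:120736108-120736357 (plus strand), chr7:55767934-55768183 (plus strand) and chr8:71537473-71537722 (minus strand), and capitals mark the matches of the 6 motifs described after them.
*Irf8*: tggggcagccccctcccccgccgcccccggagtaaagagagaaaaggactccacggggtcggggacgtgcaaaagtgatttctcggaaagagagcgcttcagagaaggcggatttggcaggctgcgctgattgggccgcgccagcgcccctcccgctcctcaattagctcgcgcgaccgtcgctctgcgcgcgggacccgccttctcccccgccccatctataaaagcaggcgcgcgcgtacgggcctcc
*Siglech*: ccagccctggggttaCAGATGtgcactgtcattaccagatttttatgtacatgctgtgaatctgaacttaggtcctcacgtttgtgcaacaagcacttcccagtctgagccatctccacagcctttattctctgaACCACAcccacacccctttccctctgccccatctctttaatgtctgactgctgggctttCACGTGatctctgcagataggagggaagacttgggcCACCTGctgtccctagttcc
*Bst2*: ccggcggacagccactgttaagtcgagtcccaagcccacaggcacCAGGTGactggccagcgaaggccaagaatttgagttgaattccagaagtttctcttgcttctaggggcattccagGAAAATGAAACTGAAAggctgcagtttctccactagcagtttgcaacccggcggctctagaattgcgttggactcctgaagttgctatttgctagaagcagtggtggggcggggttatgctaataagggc
Of the 10 genes, 7 had a RefSeq promoter entry, and *Irf8* had one at a second start as well. Both strands were searched for CACGTG (the E-box of MYC-MAX dimers, in 6.02% of 32851 promoters of this length), CAGNTG (the E-box of E proteins such as TCF4, 44.8%), GAAA followed after 2 free bases by GAAA (the core of the interferon-stimulated response element, 2.98%), GGAA followed after 2 free bases by GAAA (the ETS-IRF composite element, 2.3%), GAGGAAGT (a PU.1 and SPIB core, 2.44%) and TGTGGT (the RUNX core, 14.0%). The printed *Irf8* window held no match of the 6 motifs, and the window at its second start held 1 CAGNTG match. *Siglech* held CACGTG 56 bases before the start, CAGNTG 235 and 20 bases before it and the RUNX core 115 bases before it. In *Bst2*, a gene known to be induced by interferon, 2 overlapping matches of the interferon-stimulated response element core began 130 and 124 bases before the start, and CAGNTG began 205 bases before it. *Ccr9*, *Spib* and *Flt3* held 1 CAGNTG match each and *Runx2* 1 RUNX core. A match is a description of letters and does not show that a factor was bound.

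Of the 10 genes, 8 were higher in every *Myc* fl/fl library than in every control library, *Cox6a2* was lower in every one, and the libraries of *Bst2* overlapped. Over all tested genes, 16.2% did not overlap in the first direction and 15.1% in the second. *Irf8*, *Siglech* and *Ly6d* passed the threshold used for all genes (edgeR's quasi-likelihood test with Benjamini-Hochberg adjustment, an adjusted p under 0.01 and a log2 fold change of 0.5 or more in size), where 1.28% of all tested genes passed as higher and 0.872% as lower. None of the 10 passed as lower, also in DESeq2 and limma-trend, and none had a fall at an unadjusted p below 0.05. The median log2 fold change was 1.25 over the 10 genes and 0.01 over all tested genes. Because the rule that chose the genes used this comparison, nothing is read from these counts.

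*Irf8* was measured at 251.1, 270.4 and 288.5 CPM in control libraries 1, 2 and 4 and at 626.5, 584.9 and 764.0 CPM in *Myc* fl/fl libraries 1, 2 and 4. The lowest *Myc* fl/fl library was far above the highest control library. The means were 270.0 ± 18.7 and 658.5 ± 93.7 CPM (SD, n = 3 each), a ratio of 2.44 and a log2 fold change of 1.28 ± 0.14 (SE, edgeR). On the length-corrected TPM scale *Irf8* was also the most abundant gene of the set in every library. The coding transcript *Irf8-201* held between 69.7% and 77.8% of the gene's counts in all 6 libraries, with overlapping shares in both genotypes. A retained-intron transcript, *Irf8-202*, held between 11.4% and 18.3%. By TPM this shorter transcript was at 101.9, 96.8 and 101.5 in control and at 194.2, 239.7 and 263.0 in *Myc* fl/fl libraries. *Irf8-201* was at 86.1, 115.0 and 117.3 and at 280.9, 230.1 and 339.4 TPM. The TPM of *Irf8* given here therefore includes a large part from this non-coding transcript.

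**Figure D1:**
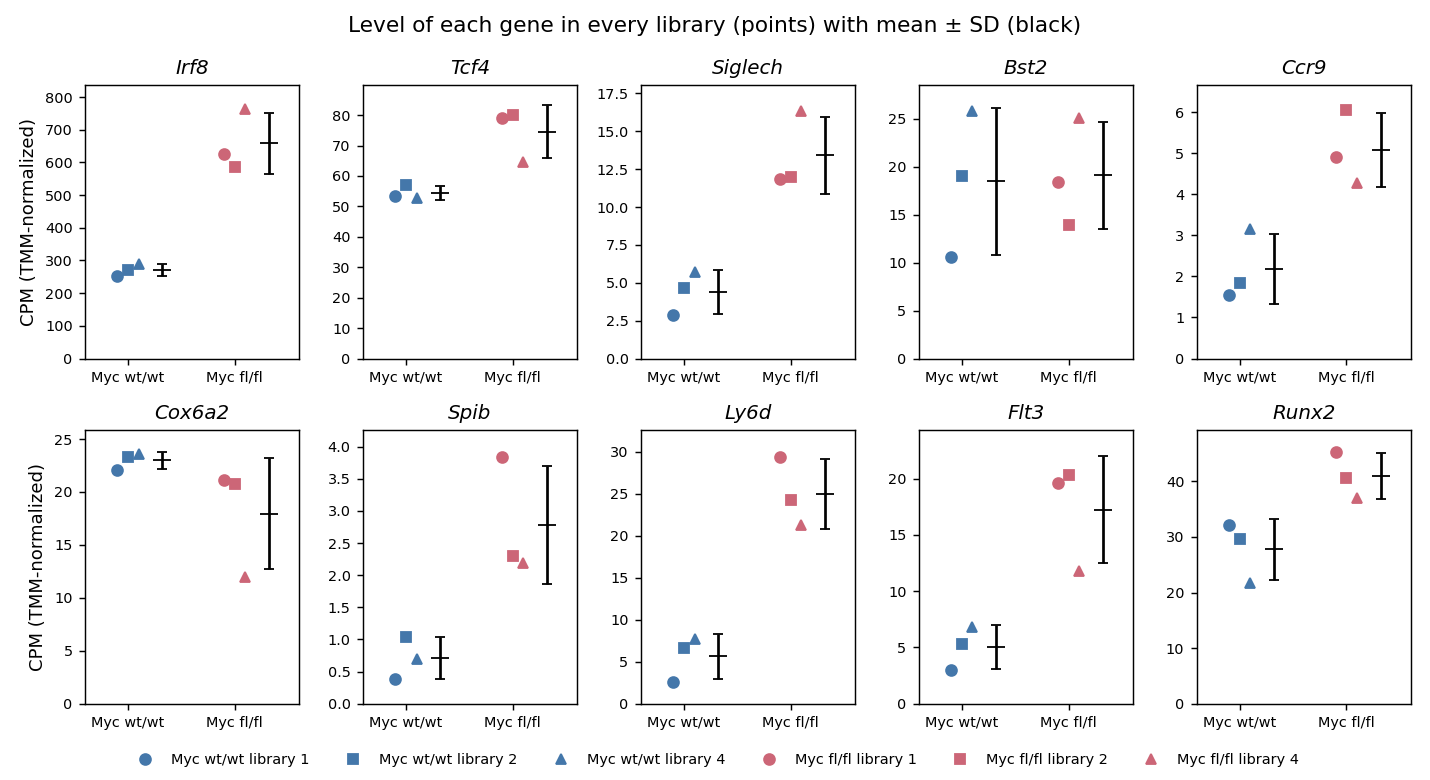
Level of each of the 10 genes in CPM (TMM-normalized, linear axis from 0) in every library, with control (Myc wt/wt) in blue, *Myc* fl/fl in red, the marker shape giving the library number and black bars giving mean ± SD (n = 3). *Irf8* separates at 251.1 to 288.5 against 584.9 to 764.0 CPM, whereas *Bst2* overlaps and *Cox6a2* is lower in the *Myc* fl/fl libraries.

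The transcription factor genes of the set beside *Irf8*, which are *Tcf4*, *Runx2* and *Spib*, had higher values in every *Myc* fl/fl library than in control, by differing amounts. None of the 3 passed the threshold in edgeR, and *Spib* alone of them passed the same limits in DESeq2. *Tcf4* (chr18:69343356-69689079, plus strand), which encodes the factor that specifies this lineage, was at 53.4, 57.2 and 52.7 CPM in control and at 79.0, 80.1 and 64.6 CPM in *Myc* fl/fl libraries. The 2 ranges did not overlap, but the log2 fold change of 0.45 ± 0.14 (SE) was much smaller than that of *Irf8*. No single *Tcf4* transcript prevailed, and the largest share held by any of its 4 more abundant transcripts in a library was 23.3%.

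*Runx2* (chr17:44495987-44814797, minus strand), a RUNX factor that supports the exit of plasmacytoid dendritic cells from the BM, was at 32.2, 29.6 and 21.7 CPM in control and at 45.3, 40.6 and 36.9 CPM in *Myc* fl/fl libraries. Its log2 fold change was 0.57 ± 0.16 (SE), again with no overlap between genotypes. The transcript *Runx2-204* held 9.2%, 9.5% and 10.5% of the gene's counts in control and 12.7%, 22.2% and 24.5% in *Myc* fl/fl libraries. The shares of *Runx2-203* (39.6% to 68.0% against 47.1% to 53.7%) and *Runx2-210* (12.3% to 41.9% against 17.4% to 21.9%) overlapped between genotypes. How reads split between transcripts is an estimate.

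*Spib* (chr7:44525993-44532071, minus strand), which encodes an ETS factor shared by plasmacytoid dendritic cells and B cells, was the least abundant gene of the set. It had 3, 59 and 46 counts in control and 226, 126 and 131 counts in *Myc* fl/fl libraries, which correspond to 0.390, 1.05 and 0.702 CPM against 3.85, 2.30 and 2.19 CPM. The libraries separated fully and the log2 fold change was 1.79 ± 0.44 (SE). The control value of library 1 rests on 3 counts only.

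Among the surface receptors, *Siglech*, which encodes the sialic acid-binding lectin used to identify mouse plasmacytoid dendritic cells, was at 2.86, 4.66 and 5.72 CPM in control and at 11.9, 12.0 and 16.4 CPM in *Myc* fl/fl libraries. Its log2 fold change was 1.61 ± 0.24 (SE), the libraries did not overlap, and, as for *Irf8*, the highest value was that of *Myc* fl/fl library 4. *Siglech-201*, 1 of several *Siglech* transcripts with counts, held between 25.6% and 56.4%.

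*Bst2*, which encodes tetherin (CD317), the antigen of a further antibody for mouse plasmacytoid dendritic cells, was at 10.5, 19.0 and 25.8 CPM in control and at 18.4, 13.9 and 25.0 CPM in *Myc* fl/fl libraries. Its genotypes overlapped widely. The log2 fold change was 0.07 ± 0.24 (SE), and it became -0.25 without replicate 1 and -0.24 when only the shallow control library was left out.

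*Ccr9* (chr9:123678439-123784330, plus strand), a chemokine receptor of mature plasmacytoid dendritic cells that guides them to the gut, was at 1.56, 1.84 and 3.16 CPM in control and at 4.90, 6.05 and 4.27 CPM in *Myc* fl/fl libraries. Its log2 fold change of 1.23 ± 0.35 (SE) was near that of *Irf8* with a wider error. The transcript *Ccr9-201* held 0%, 9.81% and 0% of its counts in control but 43.4%, 45.0% and 19.2% in *Myc* fl/fl libraries. At these counts, splitting reads between transcripts is uncertain, and 18.8% of its exon bases are shared with a transcript on the opposite strand that a kit without strand marks cannot tell apart.

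*Ly6d* (chr15:74762056-74763620, minus strand), a GPI-anchored protein of lymphoid progenitors that lead to B cells and plasmacytoid dendritic cells, had the largest log2 fold change of the set. It was at 2.60, 6.59 and 7.68 CPM in control and at 29.4, 24.3 and 21.2 CPM in *Myc* fl/fl libraries, with means of 5.62 ± 2.68 and 25.0 ± 4.13 CPM (SD, n = 3 each). The log2 fold change was 2.14 ± 0.33 (SE).

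*Flt3* (chr5:147330741-147400489, minus strand), the receptor that drives dendritic cell development and also marks early lymphoid progenitors, was at 2.99, 5.28 and 6.81 CPM in control and at 19.6, 20.4 and 11.8 CPM in *Myc* fl/fl libraries. Its log2 fold change was 1.74 ± 0.33 (SE), without overlap, and *Myc* fl/fl library 4 was well under the other two.

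*Cox6a2* (chr7:128205435-128206387, minus strand) encodes a cytochrome c oxidase subunit of muscle that plasmacytoid dendritic cells also express. It was at 22.1, 23.3 and 23.6 CPM in control and at 21.1, 20.8 and 11.9 CPM in *Myc* fl/fl libraries. *Myc* fl/fl library 4 set most of this difference, and the log2 fold change was -0.41 ± 0.22 (SE). Of its exon bases, 10.3% are shared with *Itgad* on the opposite strand, a gene with between 148 and 1847 counts here, and reads of the 2 strands cannot be told apart with this kit.

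**Figure D2:**
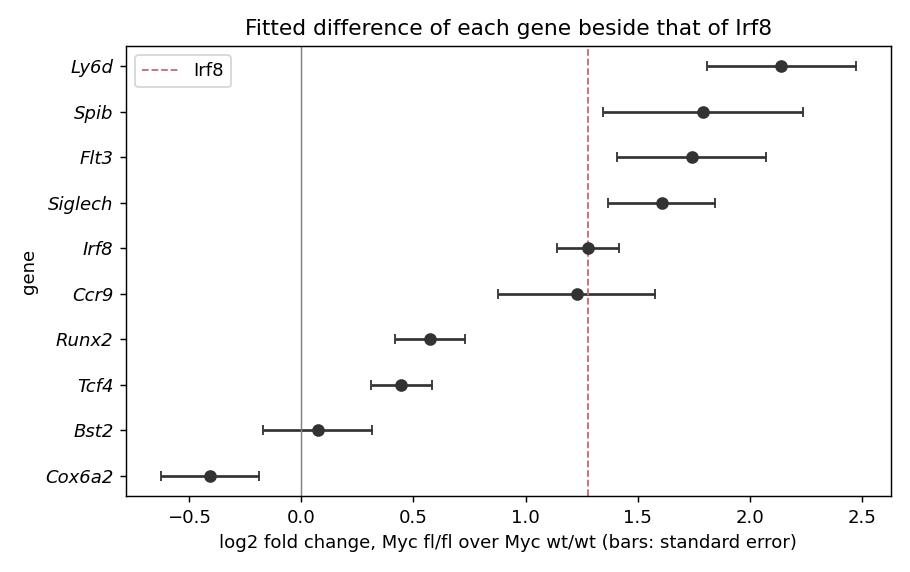
Fitted log2 fold change of each gene, *Myc* fl/fl over control (edgeR), with bars giving the standard error and the dashed line marking *Irf8* at 1.28. *Ly6d* at 2.14, *Spib* at 1.79, *Flt3* at 1.74 and *Siglech* at 1.61 lie to the right of *Irf8*, and *Ccr9*, *Runx2*, *Tcf4*, *Bst2* and *Cox6a2* lie to its left.

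In absolute terms the difference of *Irf8* exceeded that of the other 9 genes together. *Irf8* was higher by 388.5 CPM in *Myc* fl/fl cells, while the summed CPM of the other 9 genes went from 141.6 ± 11.3 to 216.0 ± 19.9 (SD, n = 3 each), a difference of 74.4 CPM. On the length-corrected TPM scale, *Irf8* went from 291.6 ± 15.8 to 740.3 ± 69.3 and the sum of the others from 181.3 ± 31.1 to 270.0 ± 28.2, differences of 448.7 and 88.8 TPM.

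The order of the TPM levels in control cells was *Irf8* (292 TPM), *Cox6a2* (63.2), *Bst2* (42.1), *Tcf4* (39.1), *Runx2* (17.1), *Ly6d* (13.2), *Siglech* (3.56), *Flt3* (1.92), *Ccr9* (0.617) and *Spib* (0.389). The ranges of the libraries overlapped between neighbours for *Cox6a2* and *Bst2*, *Bst2* and *Tcf4*, *Runx2* and *Ly6d*, and *Ccr9* and *Spib*. In *Myc* fl/fl cells, the mean TPM of *Ly6d* (62.4) stood second, before *Tcf4* (58.1), *Cox6a2* (53.3) and *Bst2* (46.3), although the libraries of these 4 genes overlapped from each to the next. *Runx2* (27.8 TPM), *Siglech* (11.4), *Flt3* (7.05), *Ccr9* (1.97) and *Spib* (1.71) followed in the same order as in control cells, with overlap only between the last 2.

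Whether a gene kept pace with *Irf8* was described within each library by the log2 ratio of its CPM to that of *Irf8*. *Ly6d* was the only gene whose ratio was higher in every *Myc* fl/fl library, with a mean shift of 1.00. The gap was small, from -5.23 in control library 4 to -5.17 in *Myc* fl/fl library 4. Control library 1, with 20 counts, was lowest at -6.59. Without replicate 1, log2 fold changes were 1.67 (*Ly6d*), 1.44 (*Siglech*), 1.39 (*Spib*), 1.37 (*Flt3*) and 1.07 (*Ccr9*), against 1.26 (*Irf8*). *Siglech* (0.37), *Ccr9* (-0.01), *Spib* (0.75) and *Flt3* (0.54) had shifts whose libraries overlapped between genotypes. The ratios of *Tcf4* (-0.83), *Runx2* (-0.71), *Bst2* (-1.18) and *Cox6a2* (-1.68) were lower in every *Myc* fl/fl library. Since *Irf8* enters every ratio, the 9 shifts are not independent of each other.

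**Figure D3:**
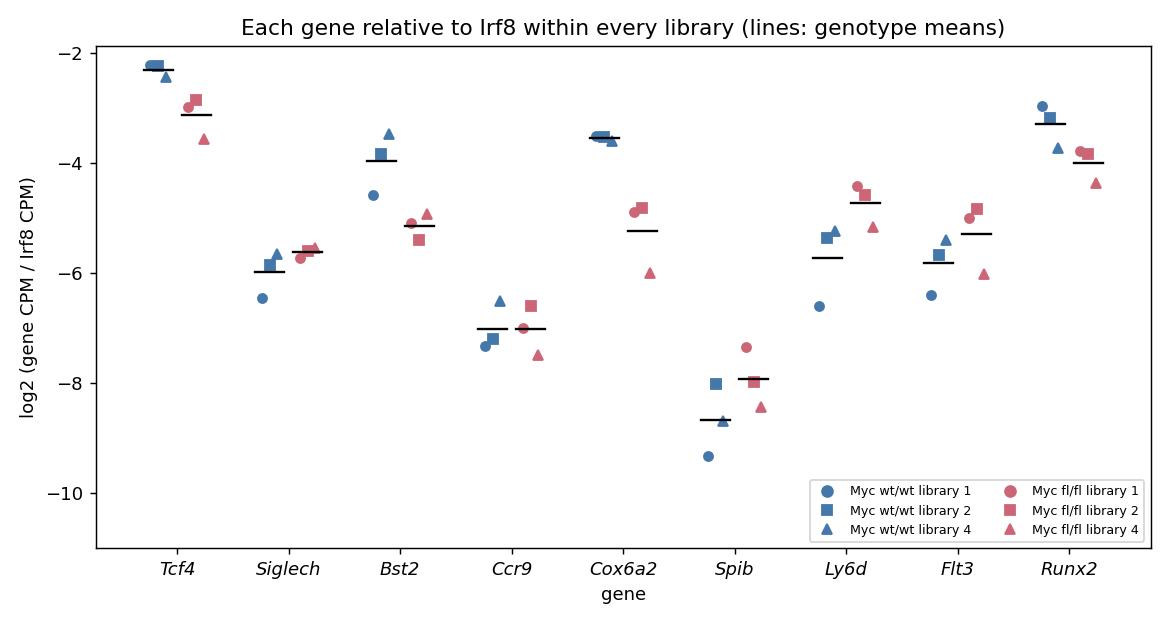
Log2 ratio of the CPM of each of 9 genes to the CPM of *Irf8* in the same library, with black lines at the genotype means, control (Myc wt/wt) in blue and *Myc* fl/fl in red. *Ly6d* moves up by 1.00, *Tcf4*, *Bst2*, *Cox6a2* and *Runx2* move down without overlap, and the other 4 genes overlap.

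The libraries of a genotype did not move in step over the set. *Myc* fl/fl library 4 had the highest *Irf8*, *Siglech* and *Bst2* of its genotype but the lowest values of the remaining 7 genes, *Flt3*, *Ly6d*, *Spib*, *Ccr9*, *Tcf4*, *Runx2* and *Cox6a2*. Among the control libraries, the shallow library 1 was lowest for 8 of the 10 genes, with *Tcf4* and *Runx2* as the exceptions. Of the 10 genes, 1 passed without replicate 1, 1 without replicate 2, 3 without replicate 4 and 2 when control library 1 alone was left out and no block was used. In the same settings 0.312%, 0.561%, 1.04% and 0.708% of all tested genes passed as higher. As above, these counts describe genes chosen on the same comparison.

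The genes whose pattern over the 6 libraries came closest to that of *Irf8* were not members of the set. After centring log2(CPM + 1) of each gene on its own mean, the smallest root mean square differences from *Irf8* among 12127 genes were those of *Smim3* (0.0894), *Stom* (0.101), *Inpp4b* (0.103), *Nr1d1* (0.117) and *St6gal1* (0.122). *Smim3*, for example, was at 8.31, 10.3 and 11.8 CPM in control and at 24.1, 24.1 and 32.6 CPM in *Myc* fl/fl libraries. In this order *Siglech* was at place 55, *Spib* at 236, *Ccr9* at 328, *Flt3* at 1123, *Runx2* at 1207, *Tcf4* at 1341, *Ly6d* at 2973, *Bst2* at 6025 and *Cox6a2* at 10888. The measure depends on the size of a difference as well as on its shape. It also depends on abundance, as the added 1 shrinks the differences of genes near 1 CPM, such as *Spib*.

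Beyond the 10 genes, 74 other genes of dendritic cells and of antigen presentation on MHC class II were listed in 5 groups, and 67 of them were tested. Of these, 7 passed as higher and none as lower by edgeR, where 1.28% and 0.872% of all tested genes did. At an unadjusted p below 0.05, 32 were higher and 3 lower, and DESeq2 called 18 higher and 1 lower while limma-trend called 5 higher and none lower. The same limits were met by 12.4% and 10.2% of all tested genes at the unadjusted p, by 4.15% and 3.42% in DESeq2 and by 0.931% and 0.504% in limma-trend. The median log2 fold change was 0.70, against 0.01 over all tested genes, with 59 above and 8 below 0. Those past the threshold were *Plac8*, *Rnase6*, *Ly6c2*, *Klf4*, *Itgax*, *Csf1r* and *Csf2rb*, of which *Ly6c2* and *Csf1r* are also monocyte markers. *Plac8* was the only one to pass without replicate 1, *Plac8* and *Csf2rb* passed without replicate 2, and 3 of the 7, *Plac8*, *Rnase6* and *Csf1r*, passed without replicate 4. Leaving out only control library 1, without a block, 3 of the 7 passed, *Itgax*, *Csf1r* and *Csf2rb*.

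In the group of other plasmacytoid dendritic cell genes, 3 of 21 tested genes rose and none fell, where 1.28% and 0.872% of all tested genes did. The median log2 fold change was 0.89. At an unadjusted p below 0.05, 13 were higher and 1 lower (12.4% and 10.2% of all tested genes). DESeq2 called 7 higher and 1 lower (4.15% and 3.42% of all tested genes). *Plac8*, abundant in these cells and in myeloid progenitors, rose from 31.7, 26.1 and 46.4 CPM to 84.3, 73.8 and 104.8 CPM, with a log2 fold change of 1.36 ± 0.14 (SE; adjusted p = 0.0019, edgeR). *Rnase6*, which encodes an antimicrobial ribonuclease, rose by 1.72 ± 0.26 on the log2 scale (adjusted p = 0.0062, edgeR). *Ly6c2*, which encodes the Ly6C antigen of monocytes and plasmacytoid dendritic cells, rose by 0.83 ± 0.13 (adjusted p = 0.0076, edgeR), and its adjusted p was 0.027 without replicate 1 and 0.076 without the replicate block. *Atp1b1*, a sodium pump subunit gene that was second to *Ly6c2* within the group in mean CPM over all 6 libraries, though not in control alone, was at 237 ± 6.88 and 255 ± 6.60 CPM (SD, n = 3 each) and did not pass (adjusted p = 0.70, edgeR).

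Further genes of this group are named after their values were seen. Of its 21 tested genes, 14 were higher and 1 lower without overlap of the libraries (16.2% and 15.1% of all tested genes). *Dntt* (log2 fold change 2.02 ± 0.40 SE; adjusted p = 0.017, edgeR) missed the threshold, and it passed as higher without replicate 4 and in DESeq2. *Bcl11a* (1.73 ± 0.36 SE; adjusted p = 0.019, edgeR) and *Smim5* (1.63 ± 0.42 SE; adjusted p = 0.044, edgeR) also missed it and passed in DESeq2. *Lair1*, an inhibitory collagen receptor of many leukocytes, was at 56.5 ± 7.53 CPM in control and at 29.7 ± 4.86 CPM in *Myc* fl/fl libraries (SD, n = 3 each), without overlap. It missed the threshold (log2 fold change -0.93 ± 0.18 SE; adjusted p = 0.014, edgeR), and it passed as lower without the block, without replicate 4 and in DESeq2. *Tlr9*, the sensor of CpG DNA in plasmacytoid dendritic cells, had 0 counts in 4 of the 6 libraries and at most 12 in any, and was not tested. *Irf7*, which drives type I interferon production in these cells, was at 92.4, 69.9 and 79.9 CPM in control and at 84.8, 100.4 and 118.2 CPM in *Myc* fl/fl libraries, which overlapped. *Havcr1* had no count in control and 18, 20 and 34 counts in *Myc* fl/fl libraries, at least 18.0-fold higher against 3 counts over the control group. It did not pass in edgeR (adjusted p = 0.020), and the group's median stayed at 0.89 with this gene at its bound.

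Genes of type 1 conventional dendritic cells, the subset that most depends on IRF8, did not pass the threshold in edgeR in either direction in any of 10 tested cases. At an unadjusted p below 0.05, 2 were higher and 2 lower, where 12.4% and 10.2% of all tested genes were, and DESeq2 called 1 higher while limma-trend called none. Their summed level was 38.6 to 47.1 CPM in control and 39.0 to 46.5 CPM in *Myc* fl/fl libraries, and the median log2 fold change was 0.44, with 8 genes above and 2 below 0. *Naaa*, a lysosomal amidase that held the largest part of the sum, was lower in every *Myc* fl/fl library, at 22.7 ± 0.79 and 16.8 ± 1.76 CPM (SD, n = 3 each; adjusted p = 0.18, edgeR). *Snx22* had a log2 fold change of 0.10 ± 0.41 (SE), which was -0.52 without replicate 1. *Xcr1*, the chemokine receptor that defines the subset, was at 0.390 to 1.83 CPM in control and at 1.35 to 2.41 CPM in *Myc* fl/fl libraries, and *Tlr11* had no count in any library. *Wdfy4*, needed for cross-presentation, was at 0.909, 0.922 and 0.534 CPM in control and at 4.85, 2.67 and 2.93 CPM in *Myc* fl/fl libraries, with a log2 fold change of 2.10 ± 0.38 (SE; adjusted p = 0.011, edgeR). It just missed the threshold and was the gene called by DESeq2, and it passed in edgeR without the replicate block (adjusted p = 0.0089). *Rab7b* had a log2 fold change of 2.18 ± 0.51 (SE; adjusted p = 0.031, edgeR), and its libraries did not overlap. These 4 genes are named after their values were seen.

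Of 10 genes of type 2 conventional dendritic cells, all were tested and *Klf4* alone passed in edgeR, with a median log2 fold change of 1.37. DESeq2 called 3 higher, *Klf4*, *Sirpa* and *Esam*, and limma-trend called none, while 5 were higher and none lower at an unadjusted p below 0.05 (12.4% and 10.2% of all tested genes). Their summed level was 7.15 to 14.5 CPM in control and 22.4 to 32.3 CPM in *Myc* fl/fl libraries. *Klf4*, a Krüppel-like factor also needed for monocytes, rose from 2.47, 5.69 and 7.76 CPM to 12.0, 13.1 and 19.0 CPM, a log2 fold change of 1.52 ± 0.26 (SE; adjusted p = 0.0092, edgeR), with an adjusted p of 0.027 without replicate 1 and 0.031 without the replicate block. *Sirpa*, which encodes the SIRPα receptor of type 2 cells and macrophages, was at 1.10 ± 0.64 and 4.17 ± 0.10 CPM (SD, n = 3 each) and just missed the threshold (adjusted p = 0.012, edgeR). *Esam*, an adhesion molecule gene named after its values were seen, had 1, 17 and 7 counts in control and 56, 105 and 66 in *Myc* fl/fl libraries, with a log2 fold change of 2.95 ± 0.53 (SE; adjusted p = 0.011, edgeR).

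Among genes shared by dendritic cells and their progenitors, 3 of 13 tested genes rose and none fell, where 1.28% and 0.872% of all tested genes did. The median was 0.56 on the log2 scale. At an unadjusted p below 0.05, 6 were higher and none lower (12.4% and 10.2% of all tested genes). DESeq2 called 5 higher and limma-trend 2, without *Csf2rb* (4.15% and 0.931% of all tested genes). *Itgax*, which encodes CD11c and is also expressed in NK cells, rose from 145.1, 140.0 and 148.1 CPM to 254.5, 256.9 and 323.8 CPM (log2 fold change 0.94 ± 0.14 SE; adjusted p = 0.0054, edgeR). *Csf1r*, the receptor of macrophage colony-stimulating factor, rose from 2.86 ± 0.50 to 10.7 ± 0.80 CPM (SD, n = 3 each; adjusted p = 0.0035, edgeR). *Csf2rb*, the common β chain of the GM-CSF, IL-3 and IL-5 receptors, rose by 2.96 ± 0.48 (SE) on the log2 scale (adjusted p = 0.0073, edgeR). *Ccr2*, the most abundant gene of the group, was at 1561 ± 154 and 1855 ± 176 CPM (SD, n = 3 each) and did not pass (adjusted p = 0.31, edgeR).

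None of the 13 MHC class II genes passed by edgeR. At an unadjusted p below 0.05, 6 were higher and none lower (12.4% and 10.2% of all tested genes), DESeq2 called 2 higher and limma-trend none. The median log2 fold change was 0.39, with 10 above and 3 below 0, and 7 were higher and none lower without overlap of the libraries (16.2% and 15.1% of all tested genes). The genes called by DESeq2 were *H2-Aa* and *H2-Eb1*, chains of the class II molecules named after their values were seen, with log2 fold changes of 0.81 and 0.98 in edgeR. The summed level of the 13 genes was 303.1 to 364.4 CPM in control and 356.0 to 467.7 CPM in *Myc* fl/fl libraries, so that the ranges overlapped. *Cd74*, the invariant chain, was at 86.9 ± 23.7 and 117 ± 27.7 CPM, and *H2-DMa*, a peptide-loading subunit, at 60.6 ± 3.14 and 79.6 ± 5.26 CPM (SD, n = 3 each).

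The transcription factors that partner or oppose IRF8 and TCF4 were followed as a further group of 28 genes, all tested, of which 3 rose and none fell, where 1.28% and 0.872% of all tested genes did. DESeq2 called 9 higher and limma-trend 1 (4.15% and 0.931% of all tested genes), and 15 were higher and none lower at an unadjusted p below 0.05, where 12.4% and 10.2% of all tested genes were. The median log2 fold change was 0.44. *Spi1*, which encodes PU.1, the ETS partner of IRF8, rose from 1.56, 1.97 and 3.28 CPM to 12.8, 10.5 and 9.26 CPM (log2 fold change 2.23 ± 0.32 SE; adjusted p = 0.0051, edgeR). *Cebpb*, a myeloid C/EBP factor, rose by 1.01 ± 0.16 (adjusted p = 0.0069, edgeR), and *Klf4* was the third. Without replicate 1, none of the 3 passed, with an adjusted p of 0.020 for *Spi1* and 0.027 for *Cebpb*. Without the replicate block *Spi1* passed and *Cebpb* did not (adjusted p = 0.031). *Id2*, which encodes the inhibitor of E proteins that NK cells require and that opposes TCF4, was at 1445 ± 50.4 and 1967 ± 74.5 CPM (SD, n = 3 each), and *Irf1* was at 353 ± 8.65 and 473 ± 75.2 CPM. Neither passed (adjusted p = 0.077 and 0.12, edgeR).

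None of 23 interferon-stimulated genes passed by edgeR or limma-trend. At an unadjusted p below 0.05, 6 were higher and none lower, where 12.4% and 10.2% of all tested genes were, and DESeq2 called 2 higher. The median log2 fold change was 0.33, and the summed level was 832.0 to 977.7 CPM in control and 1068 to 1156 CPM in *Myc* fl/fl libraries. *Irf9*, a subunit of the complex that type I interferon activates, was at 91.4 ± 7.87 and 117 ± 2.31 CPM (SD, n = 3 each).

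**Figure D4:**
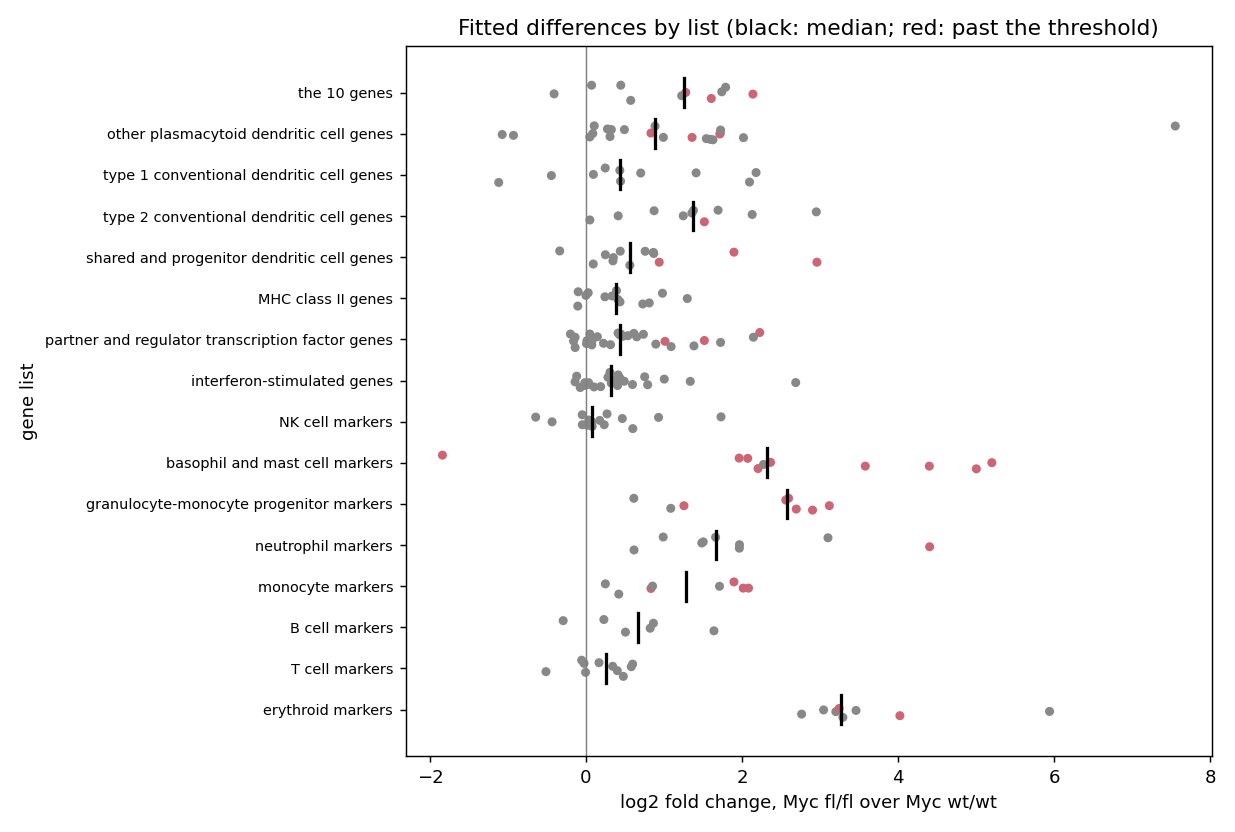
Fitted log2 fold change of every tested gene by list, *Myc* fl/fl over control (edgeR), with black bars at the medians and red points for genes past the threshold. The 10 genes have a median of 1.25, type 1 conventional dendritic cell genes 0.44 and granulocyte-monocyte progenitor markers 2.58, and the point near 7.5 is *Havcr1*, which had no count in control libraries, so that its fitted value depends on the prior count.

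Markers of other cell types that the BM holds differed between the same libraries. Of 8 granulocyte-monocyte progenitor markers, 6 rose, where 1.28% of all tested genes did, with a summed level of 188.9 to 236.2 CPM in control and 747.4 to 1057 CPM in *Myc* fl/fl libraries. These cells also express *Irf8* and *Flt3*. *Mpo*, the myeloperoxidase of granule-forming progenitors, rose from 71.2, 90.9 and 103.7 CPM to 467.7, 443.9 and 717.3 CPM, highest in *Myc* fl/fl library 4, as for *Irf8*. *Kit*, a receptor of progenitors and mast cells, went from 84.3, 63.6 and 83.4 CPM to 241.1, 188.4 and 134.3 CPM, lowest in *Myc* fl/fl library 4, as for *Flt3* and *Ly6d*.

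Of 10 basophil and mast cell markers, 8 rose and *Cma1* fell, where 1.28% and 0.872% of all tested genes did, with sums of 32.2 to 37.2 and 125.4 to 340.4 CPM. *Prss34*, a basophil protease, had a log2 fold change of 5.20 ± 0.43 (SE; adjusted p = 7.7e-04, edgeR). Of 8 tested monocyte markers, 4 rose, among them *Ly6c2* and *Csf1r*, with sums of 1671 to 1875 and 2109 to 2392 CPM, of which *Ccr2* held most. Without replicate 1, 3 of the basophil and mast cell markers, 4 of the granulocyte-monocyte progenitor markers and none of the monocyte markers passed as higher, *Cma1* did not pass as lower (adjusted p = 0.011, edgeR), and without the replicate block 2 of the monocyte markers did. Over all tested genes, 0.312% passed as higher and 0.0636% as lower without replicate 1, and 1.31% and 1.19% without the replicate block. *Fcgr1* had no count in control libraries. Of 9 tested neutrophil markers, 1 rose in edgeR, 4 were called by DESeq2 and 7 were higher at an unadjusted p below 0.05, where 1.28%, 4.15% and 12.4% of all tested genes were, and the median log2 fold change was 1.66, with sums of 4.81 to 17.8 and 17.2 to 32.5 CPM. The edgeR call, *Retnlg*, was lost without replicate 1 (adjusted p = 0.025), without the replicate block (adjusted p = 0.019) and in limma-trend.

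All 8 erythroid markers were higher in every *Myc* fl/fl library and had an unadjusted p below 0.05, with a median log2 fold change of 3.27. Of these, 2 passed in edgeR and 6 in DESeq2, where 1.28% and 4.15% of all tested genes passed as higher. Over all tested genes, 16.2% were higher without overlap and 12.4% were higher at that unadjusted p. The markers summed to 43.8 to 279.8 CPM in control and 543.9 to 1149 CPM in *Myc* fl/fl libraries. B cell markers, which matter for *Spib* and *Ly6d*, did not pass in any of 6 tested cases, and none was called by DESeq2 or limma-trend. At an unadjusted p below 0.05, 2 were higher and none lower (12.4% and 10.2% of all tested genes). Their sums were 580.2 to 1500 and 577.0 to 757.2 CPM, almost all of it *Ighm*, and *Vpreb1* had no count in control. The 2 higher genes were *Cd79b*, at 3.25, 5.53 and 6.73 against 9.53, 9.44 and 8.99 CPM, and *Cd79a*, named after its values were seen. Both were higher in every *Myc* fl/fl library, with log2 fold changes of 0.87 and 1.64. None of 10 T cell markers passed, with 4 higher and 1 lower at an unadjusted p below 0.05 (12.4% and 10.2% of all tested genes) and none called by DESeq2 or limma-trend, and sums of 936.1 to 1305 and 954.7 to 1233 CPM. *Cma1*, *Fcgr1* and *Vpreb1* are given beside the totals whether or not the naming rule chose them. The part of any of these cell types in the values of *Irf8* and the other 9 genes was not tested.

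The 15 NK cell markers themselves did not pass in edgeR or limma-trend. In edgeR 4 were higher and 2 lower at an unadjusted p below 0.05, where 12.4% and 10.2% of all tested genes were, and DESeq2 called 1 higher. *Nkg7*, a granule protein, was at 2914, 3486 and 3615 CPM in control and at 3728, 4322 and 3999 CPM in *Myc* fl/fl libraries, and *Il2rb*, the IL-15 receptor β chain, at 2680, 3221 and 3222 against 4330, 3851 and 4399 CPM (adjusted p = 0.28 and 0.085, edgeR). The sums of the 15 markers did not overlap between genotypes. *Gzmb* and *Prf1*, named after their values were seen, were highest in *Myc* fl/fl library 4, as were *Irf8* and *Mpo*. *Gzmb* was at 211.8, 185.9 and 166.0 CPM in control and at 472.2, 357.9 and 1488 CPM in *Myc* fl/fl libraries (adjusted p = 0.022, edgeR). *Prf1* was at 616.2, 689.5 and 498.3 against 846.4, 891.4 and 1988 CPM (adjusted p = 0.077, edgeR). *Ncr1* was lowest of its genotype in that library, at 793.3 CPM.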

How the data were processed

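RNA of sorted BM CD27SP NK cells was amplified with the SMART-Seq v4 kit, which does not mark strand, and sequenced single end. The authors deposited, for each of 6 libraries, estimated counts, TPM and effective lengths per mouse transcript. The methods name Salmon with a human build (GRCh38, also in the submitters' processing notes), whereas the deposited identifiers are those of mouse and the columns have the layout of kallisto.

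Estimated counts and TPM were summed by gene symbol through GENCODE M21 (GRCm38), which held 100239 of 100583 transcripts, the rest holding 0.129% to 0.169% of the counts. Counts were rounded to whole numbers. Genes passing filterByExpr were tested with the quasi-likelihood test of edgeR (4.0.16, R 4.3.3) on TMM-scaled counts. The replicate number was a block, following the study's paired analyses. Benjamini-Hochberg adjustment covered all tested genes, with limits of 0.01 and 0.5 for the absolute log2 fold change. CPM values are TMM-normalized. Depth limits precision most in control library 1, and differences below a few counts in it were not detectable. Libraries sharing a genotype differed beyond counting noise (chi-square per degree of freedom 40.0 to 101.3), so that all 6 are distinct.

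The 10 genes and the other lists were chosen with earlier results of these data known. The text names the 10 genes, the 2 most abundant genes of each other list, up to 5 of its genes past the threshold with the smallest adjusted p, and the 5 genes with the smallest root mean square difference from *Irf8* among tested genes at a mean of at least 1 CPM. Some of these marker genes are given by their list's counts only, and 1 gene that the rule names is not reported here. Promoters are from RefSeq (GRCm38.p6). Alternatives were no block, each replicate pair left out, DESeq2 (1.42.0), limma-trend (3.58.1), the largest p of the 3 methods as in the study, RLE size factors, library size only, no filter or at least 10 counts in every library, offsets from effective lengths, and a looser limit (adjusted p under 0.05, any fold change). Leaving out control library 1 alone, without a block, was added after seeing the data. The scripts were tested on simulated counts at these depths.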

Additional observations from a re-analysis of the deposited data

How the results depend on the processing

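The log2 fold change of *Irf8*, a value that the choice of genes used, lay between 1.197 and 1.372 under the alternatives. Of 125 values of the other 9 genes under the alternatives, 106 kept their direction and side of the threshold, 10 lost the call, 7 gained it and 2 turned direction, both of *Bst2*. Of 638 values of 46 other named genes, 530 kept both, 83 lost the call, 17 gained it and 8 turned. *Spib* was not tested when 10 counts in every library were asked for. Causes of these changes were not tested except where stated.

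Same-numbered libraries of the genotypes did not deviate together (correlations of -0.0121, -0.0198 and 0.0505 over 15474 genes for replicates 1, 2 and 4, below the limit of 0.1), so that equal numbers do not mark pairs by this measure. Without the replicate block, 203 genes were higher and 184 lower, against 198 and 135 with it. Of the 10 genes 4 passed (*Flt3* added), and of the other dendritic genes 7 were higher and 1, *Lair1*, lower, with *Ly6c2* and *Klf4* lost and *Havcr1* and *Wdfy4* added.

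The count of genes higher was 49 to 162 with 1 replicate pair left out, 642 in DESeq2, 49 with library size only, 524 without a filter, 24 with length offsets, 689 at the looser limit (adjusted p under 0.05, any fold) and 113 without control library 1 alone. The count lower was 10 to 114 with 1 pair left out, 529 in DESeq2, 78 in limma-trend and 78 by the largest p of the 3 methods, 25 with library size only, 378 without a filter, 6 with length offsets and 523 at the looser limit. Leaving out a pair also leaves fewer libraries. Of the 10 genes, 1 to 3 passed with 1 pair left out, 5 in DESeq2 and at the looser limit (*Spib* and *Flt3* added), and 1 with library size only or length offsets. Of the other dendritic genes, 1 to 4 were higher with 1 pair left out, 18 in DESeq2, 1 with library size only, 14 without a filter, 1 with length offsets, 4 without control library 1 alone and 19 at the looser limit. *Lair1* was the 1 gene lower in DESeq2, without replicate 4 (the range over pairs being 0 to 1), without a filter and at the looser limit.

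Log2 fold changes that turned direction were those of *Bst2* (-0.25 to 0.36 with 1 pair left out, the lowest without replicate 1, and -0.24 without control library 1 alone), *Snx22* (-0.14 without the replicate block, -0.52 to 0.52 with 1 pair left out and -0.54 without control library 1 alone), *Ighm* (-0.63 to 0.15 and 0.15) and *Trbc1* (-0.14 to 0.11 and 0.0062 in the same settings, and 0.0018 with at least 10 counts in every library).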
